A study of Mus musculus with 3 samples.

Results

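The interferon-stimulated genes described here are 44 transcripts, taken by symbol, out of 35275 genes in the deposited table. All 44 symbols were found, each in 1 row. The set holds 33 genes of the kind induced by type I interferons, 8 GTPases that interferon gamma induces, and 3 genes (Irf1, Irf8 and Ubd) that respond to interferon gamma or to either kind and were placed in neither class. Each of the 44 reached 1 FPKM (fragments divided by gene length in kilobases and by the library's total on genes) in at least 1 library, as did 11835 genes in all. 37 of them reached it in every library, and 3 in 1 library only, namely Ubd in NASH and Oas3 and Mx1 in TH-treated NASH.

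Liver polyA RNA of male C57BL/6 mice, aged 10 weeks at the start, was sequenced as 1 library per group. How many mice went into each is not stated in the labels. For TH-treated NASH, mice were kept on a western diet with liquid fructose for 16 weeks, then also given the thyroid hormones T3, at 35 ng/g, and T4, at 7 ng/g, for 8 weeks in drinking water that held 15% fructose. NASH (nonalcoholic steatohepatitis) mice had the same kind of diet without hormone, and 24 weeks stands in the label. The control library came from untreated mice on normal chow. The libraries held 38303410 (TH-treated NASH), 47009255 (NASH) and 54576236 (control) fragments on genes, and members rested on 21 to 18450 fragments each. Albumin, Alb, a defining transcript of hepatocytes, stood at 14907 FPKM in TH-treated NASH, 20265 in NASH and 32685 in control. Alb was chosen after its values were seen, and not all hepatocyte markers ran the same way. The median difference of log2(FPKM + 1) of 8 hepatocyte markers was −0.47 for NASH over control. For TH-treated NASH over NASH it was 0.27. Since every group is a single library, no difference could be checked against replicates or tested. A range in brackets is an exact 95% interval for the counting of fragments only, not for differences between mice. Genes count as higher or lower where log2(FPKM + 1) differed by at least the log2 of 1.5, on which low genes show less than their full fold, whereas a printed fold is the ratio of the FPKM values. In whole liver, fewer cells of a type and less RNA per cell cannot be told apart.

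Type I interferons signal through a receptor whose kinases activate STAT2, which acts with IRF9 in a complex that binds the interferon-stimulated response element (ISRE) in target promoters. Interferon gamma uses another receptor and acts through the gamma-activated site (GAS) in promoters and through IRF1. The products sense viral RNA and DNA, block viral replication, modify proteins with ISG15, or, in the case of the GTPases, attack membranes around intracellular microbes. In liver these genes are expressed in hepatocytes and in immune and endothelial cells.

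Promoter windows from RefSeq (build GRCm38.p6), each from 250 bases before to 50 after an annotated start, were at hand for 32 of the 44 genes. They were searched on both strands for the ISRE core, GAAA followed by any 2 bases and GAAA again, and for the GAS, TTC followed by any 3 bases and GAA. The GAS letters read the same on both strands, and each such site was counted once. The ISRE core stood in 18 of the 32 members, against 3.99% of the 27025 genes in the table, with a gene counted where any of its windows held it. Among type I style genes 12 of 23 held it, and all 6 GTPases with a window did. The GAS stood in 10 of the 32 members, against 9.55% of all genes, and in 5 of 23 type I style genes, 3 of 6 GTPases and both Irf1 and Irf8. These shares describe letters in a window and show no binding.

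The stretches below are shown because they carry these matches in genes whose levels are described next. Capitals mark the ISRE core or its reverse complement (TTTC, any 2 bases, TTTC), or the GAS, with 15 bases on either side, read along the strand of the gene.
Isg15 (chr4:156200860-156200911, minus strand): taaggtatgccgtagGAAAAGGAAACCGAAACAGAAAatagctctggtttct
Ifit1 (chr19:34640770-34640828, plus strand): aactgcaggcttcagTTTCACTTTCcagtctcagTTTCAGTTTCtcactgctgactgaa
Oas1a (chr5:120907515-120907560, minus strand): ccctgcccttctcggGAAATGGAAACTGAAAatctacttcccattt
Oas1g (chr5:120887601-120887646, minus strand): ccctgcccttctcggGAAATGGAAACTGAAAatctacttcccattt
Bst2 (chr8:71537572-71537623, minus strand): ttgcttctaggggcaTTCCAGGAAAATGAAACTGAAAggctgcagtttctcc
Gbp3 (chr3:142559984-142560029, plus strand): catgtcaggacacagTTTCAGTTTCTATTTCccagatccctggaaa
Igtp (chr11:58199496-58199546, plus strand): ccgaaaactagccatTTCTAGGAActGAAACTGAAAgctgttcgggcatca
Irgm2 (chr11:58214887-58214937, plus strand): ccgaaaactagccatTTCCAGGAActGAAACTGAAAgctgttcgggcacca
Irgm1 (chr11:48871420-48871465, minus strand): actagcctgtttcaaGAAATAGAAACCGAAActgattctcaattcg
Irf8 (chr8:120736172-120736228, plus strand): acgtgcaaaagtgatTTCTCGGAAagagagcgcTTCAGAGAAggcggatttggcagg
Irf1 (chr11:53769909-53769947, plus strand): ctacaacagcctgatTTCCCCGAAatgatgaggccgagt
Isg15 held 3 overlapping cores, the first starting 78 bases before the annotated start. In Bst2 a GAS overlapped the first of 2 overlapping cores. The stretches of Oas1a and Oas1g were identical over 46 bases. Those of Igtp and Irgm2 differed at 2 of 51 bases, and both held a GAS just before an ISRE core. Irf1 and Irf8, which encode interferon regulatory factors, held the GAS and no ISRE core. The window of Ubd held neither set of letters.

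**Figure D1:**
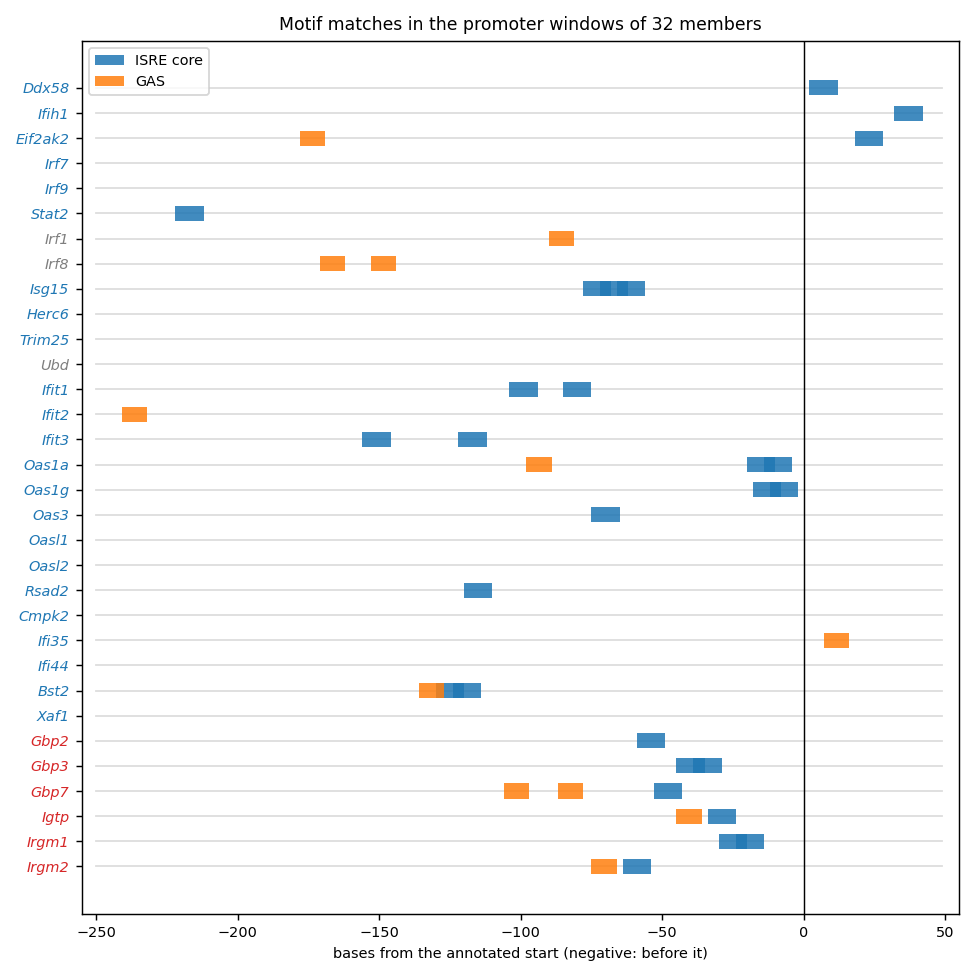
Positions of the ISRE core (blue) and the GAS (orange) in the promoter windows of the 32 members with a window, in bases from the annotated start, with negative values before it. Genes run down the page by role, and matches of all windows of a gene are drawn on its line. All 6 GTPases have an ISRE core, between 64 and 24 bases before the start.

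In NASH against control, 26 of the 44 genes were higher and none lower, where 10.3% of all 11835 genes were higher and 2.53% lower. The median log2 ratio of the members was 0.68, against 0.12 for all genes. Counting intervals lay wholly above 1 for 38 members and wholly below 1 for 1, Iigp1. Median-of-ratios scaling brought the median of all genes to −0.06 and TMM (trimmed mean) scaling to −0.02. Under either of these, 16 members were higher and none lower, and the members' median was 0.51 under the median-of-ratios and 0.54 under the TMM scaling. Of all genes, 6.52% were higher and 4.40% lower under the median-of-ratios scaling. Under the TMM scaling these shares were 7.06% and 3.95%. The share of higher genes among all calls, 80.3% as deposited, was 59.7% under the median-of-ratios and 64.2% under the TMM scaling. The 10 members called as deposited but not under these scalings were Ddx58, Dhx58, Irf8, Oasl1, Rsad2, Cmpk2, Bst2, Xaf1, Rtp4 and Gbp7.

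In TH-treated NASH against NASH, 10 members were higher and 2, Ubd and Gbp6, lower, where 8.42% of all genes were higher and 9.02% lower. The median of the members was 0.17, against −0.04 for all genes. Scaling to equal FPKM totals moved the median of all genes to −0.12 and left 6 members higher and 2 lower. Of all genes, 6.50% were then higher and 12.0% lower. The share of higher genes among all calls was 35.2% under this scaling, against 48.3% as deposited. The 4 calls that this scaling removed were Irf7, Oas1a, Oas2 and Ifi27. This comparison and the one before share the NASH library, so any error of that library enters both with opposite sign.

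In TH-treated NASH against control, 28 members were higher and none lower, where 15.5% of all genes were higher and 6.86% lower. The median of the members was 0.84, against 0.11 for all genes. After median-of-ratios or TMM scaling 27 members were higher and none lower. Of all genes, 10.61% were higher and 10.42% lower under the median-of-ratios scaling. Under the TMM scaling these shares were 10.35% and 10.7%. The share of higher genes among all calls was 50.5% under the median-of-ratios, 49.2% under the TMM and 60.1% under the equal totals scaling, against 69.3% as deposited. The call that was lost under both was Oasl1. Among members the ratio of TH-treated NASH to control was highest for Ifi27l2a, at 8.43 (7.34 to 9.73), and lowest for Gbp6, at 0.717 (0.628 to 0.816). Control is shared with the comparison of NASH to control, and TH-treated NASH with the comparison to NASH.

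**Figure D2:**
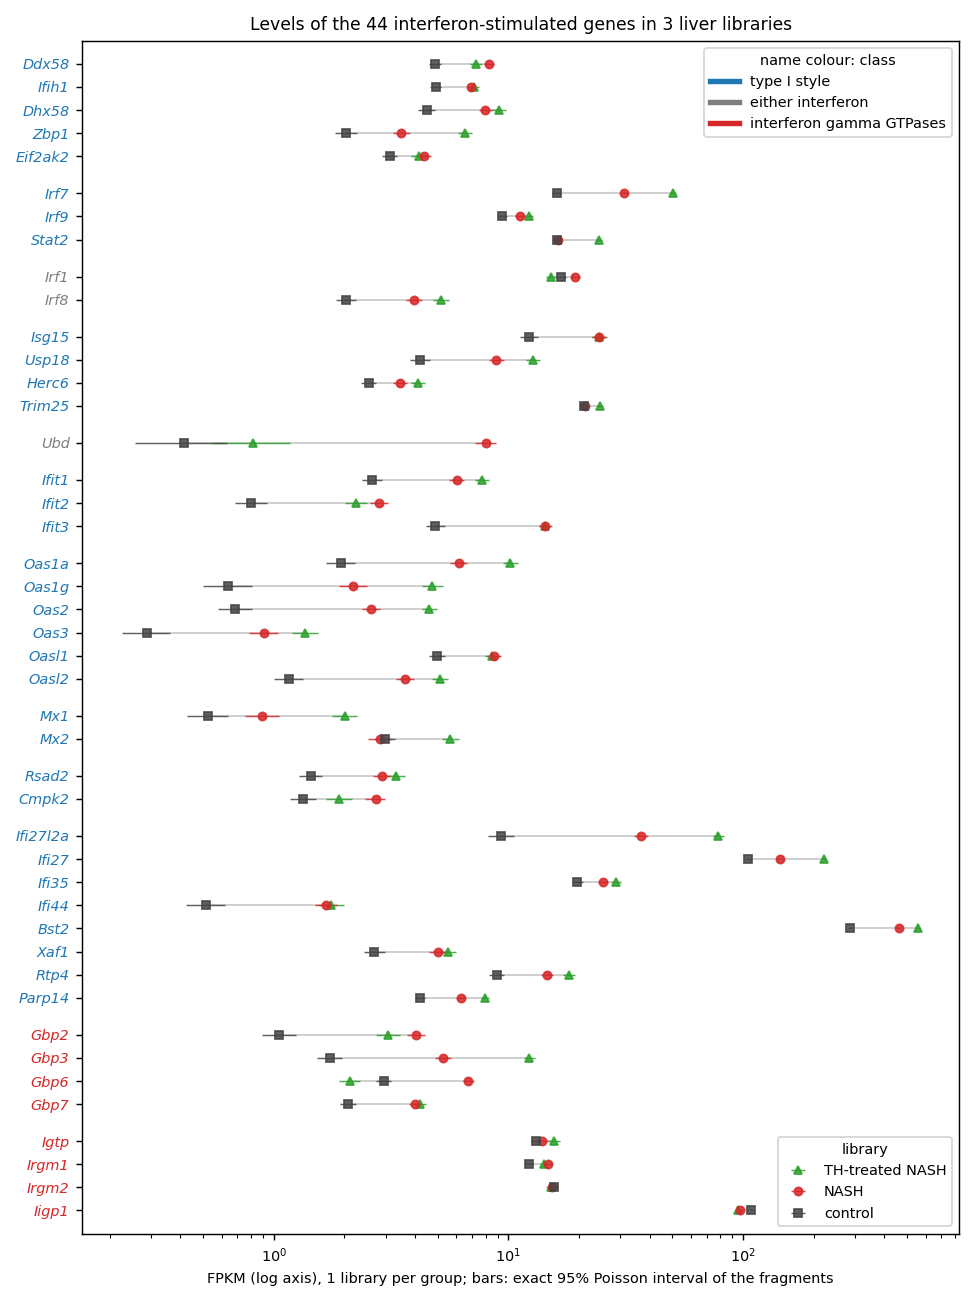
FPKM of the 44 genes (log axis) in TH-treated NASH (triangles), NASH (circles) and control (squares), 1 library each, with exact 95% Poisson intervals of the fragments as bars and the class given by the colour of the name. Of the 6 OAS genes all but Oasl1 have separate values in the 3 libraries, the 4 immunity-related GTPases at the bottom lie close together, and Ubd stands far higher in NASH than in the other libraries, at 0.813 FPKM in TH-treated NASH, 7.997 in NASH and 0.413 in control.

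Among the sensors, Ddx58, which encodes the RNA sensor RIG-I, stood at 7.3 FPKM in TH-treated NASH, 8.26 in NASH and 4.86 in control. Ifih1, which encodes MDA5, a sensor of long double-stranded RNA, stood at 7.12 FPKM in TH-treated NASH, 6.95 in NASH and 4.89 in control. Dhx58, their relative LGP2, stood at 9.09 FPKM in TH-treated NASH, 7.98 in NASH and 4.48 in control. All 3 were thus lowest in control. Ddx58 and Dhx58 passed the threshold in NASH against control, at 1.7-fold (1.57 to 1.84) for Ddx58 and 1.78-fold (1.6 to 1.98) for Dhx58, and Ifih1 did not. Ratios of TH-treated NASH to NASH were 0.883 (0.816 to 0.956) for Ddx58, 1.03 (0.957 to 1.1) for Ifih1 and 1.14 (1.04 to 1.25) for Dhx58. Zbp1, a sensor of Z-form nucleic acids that can start necroptosis, stood at 6.54 FPKM in TH-treated NASH, 3.5 in NASH and 2.03 in control, 1.87-fold (1.68 to 2.09) higher in TH-treated NASH than in NASH. Eif2ak2, the kinase PKR that halts translation on double-stranded RNA, stood at 4.15 FPKM in TH-treated NASH, 4.36 in NASH and 3.13 in control. Zbp1 was also 3.22-fold (2.84 to 3.65) and Dhx58 2.03-fold (1.82 to 2.26) higher in TH-treated NASH than in control. Zbp1 was the 1 sensor of these 5 past the threshold in TH-treated NASH against NASH.

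The transcription factor Irf7, which drives interferon alpha genes, was the most abundant of the 5 transcription factors in TH-treated NASH and in NASH. It stood at 50.5 FPKM in TH-treated NASH, 31.2 in NASH and 16.1 in control. NASH was 1.94-fold (1.84 to 2.06) higher than control, and TH-treated NASH was 1.62-fold (1.55 to 1.69) higher than NASH. Stat2 stood at 24.4 FPKM in TH-treated NASH, 16.2 in NASH and 16.2 in control, with TH-treated NASH above both other libraries. The ratio of TH-treated NASH to NASH was 1.5 (1.43 to 1.57), just under the threshold on the log2(FPKM + 1) scale, and that of NASH to control was 1.005 (0.959 to 1.05). Irf9, the partner of STAT2, stood at 12.2 FPKM in TH-treated NASH, 11.2 in NASH and 9.41 in control, past the threshold in no comparison. Irf8, a factor of monocytes and dendritic cells, stood at 5.16 FPKM in TH-treated NASH, 3.95 in NASH and 2.03 in control, 1.94-fold (1.71 to 2.21) higher in NASH than in control. Irf1, a first target of interferon gamma, stood at 15.2 FPKM in TH-treated NASH, 19.3 in NASH and 16.8 in control, and no pair of libraries passed the threshold. The factors past the threshold in TH-treated NASH against control were Irf7 at 3.14-fold (2.98 to 3.32) and Irf8 at 2.54-fold (2.24 to 2.88).

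In the ISG15 pathway, Isg15, the ubiquitin-like modifier itself, stood at 24.4 FPKM in TH-treated NASH, 24.4 in NASH and 12.3 in control. NASH was 1.98-fold (1.78 to 2.22) higher than control, and the ratio of TH-treated NASH to NASH was 1.002 (0.906 to 1.11). Usp18, which removes ISG15 from proteins and dampens the type I receptor, stood at 12.7 FPKM in TH-treated NASH, 8.88 in NASH and 4.2 in control. It was 2.11-fold (1.87 to 2.39) higher in NASH than in control, and its ratio of 1.43 (1.29 to 1.58) in TH-treated NASH against NASH did not pass the threshold. Herc6, the mouse ligase for ISG15, stood at 4.1 FPKM in TH-treated NASH, 3.46 in NASH and 2.54 in control. Trim25, a ubiquitin ligase that acts on RIG-I, stood at 24.5 FPKM in TH-treated NASH, 21.2 in NASH and 20.97 in control. Neither of these ligases passed the threshold in any pair. Isg15 was 1.99-fold (1.77 to 2.23) and Usp18 3.02-fold (2.68 to 3.41) higher in TH-treated NASH than in control.

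The IFIT proteins bind foreign RNA ends and block its translation, and their genes lie together, Ifit2 on chromosome 19 from 34550694 to 34576419, Ifit3 from 34583531 to 34588731 and Ifit1 from 34640871 to 34650009 in the deposited table (genome build: not given in the sources used here). Ifit1 stood at 7.74 FPKM in TH-treated NASH, 6.01 in NASH and 2.62 in control. Ifit2 stood at 2.24 FPKM in TH-treated NASH, 2.81 in NASH and 0.801 in control. Ifit3 stood at 14.4 FPKM in TH-treated NASH, 14.3 in NASH and 4.88 in control. All 3 were higher in NASH than in control, Ifit1 at 2.29-fold (2.03 to 2.6), Ifit2 at 3.51-fold (2.94 to 4.21) and Ifit3 at 2.93-fold (2.63 to 3.27). None of the 3 passed the threshold in TH-treated NASH against NASH, where the ratio was 1.29 (1.16 to 1.42) for Ifit1, 0.797 (0.692 to 0.918) for Ifit2 and 1.003 (0.92 to 1.09) for Ifit3. Relative to control, TH-treated NASH was higher by 2.95-fold (2.61 to 3.34) for Ifit1, 2.8-fold (2.32 to 3.39) for Ifit2 and 2.94-fold (2.63 to 3.29) for Ifit3. Of the 75-base stretches of Ifit3, 41.1% also occur in Ifit3b, so reads of these copies may be split or lost in counting.

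Active OAS enzymes make 2′-5′ oligoadenylates that activate RNase L, and mouse Oasl1, which lacks this activity, dampens Irf7 translation. Oas1a stood at 10.2 FPKM in TH-treated NASH, 6.15 in NASH and 1.93 in control. Oas1g stood at 4.74 FPKM in TH-treated NASH, 2.18 in NASH and 0.639 in control. Oas2 stood at 4.61 FPKM in TH-treated NASH, 2.6 in NASH and 0.685 in control. All 3 were higher in NASH than in control, Oas1a at 3.18-fold (2.7 to 3.76), Oas1g at 3.42-fold (2.59 to 4.56) and Oas2 at 3.8-fold (3.15 to 4.6). They were also higher in TH-treated NASH than in NASH, Oas1a at 1.66-fold (1.48 to 1.85), Oas1g at 2.17-fold (1.82 to 2.59) and Oas2 at 1.77-fold (1.58 to 1.99). Oas3 was low throughout, at 1.36 FPKM in TH-treated NASH, 0.906 in NASH and 0.287 in control, and its ratios of 3.15 (2.4 to 4.17) for NASH over control and 1.5 (1.24 to 1.81) for TH-treated NASH over NASH did not pass on the log2(FPKM + 1) scale. Oasl2 stood at 5.1 FPKM in TH-treated NASH, 3.62 in NASH and 1.16 in control, 3.14-fold (2.66 to 3.71) higher in NASH than in control. Oasl1 stood at 8.55 FPKM in TH-treated NASH, 8.69 in NASH and 4.97 in control, with a ratio of TH-treated NASH to NASH of 0.983 (0.89 to 1.09). All 6 genes of the family were higher in TH-treated NASH than in control, at 5.27-fold (4.5 to 6.19) for Oas1a, 7.41-fold (5.72 to 9.74) for Oas1g and 6.73-fold (5.63 to 8.09) for Oas2. The ratios of the other 3 were 4.72-fold (3.62 to 6.2) for Oas3, 4.41-fold (3.75 to 5.21) for Oasl2 and 1.72-fold (1.54 to 1.92) for Oasl1. Of these, the Oasl1 call was lost after median-of-ratios or TMM scaling. Oas3 met the 1 FPKM entry level in TH-treated NASH alone, so a high value there was a condition for its being counted. Oas1a and Oas1g share 47.6% and 44.6% of their 75-base stretches with each other, so their separate values are uncertain.

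The MX proteins are dynamin-like GTPases that trap viral nucleocapsids, and Mx1 carries an inactivating deletion in C57BL/6 and most other laboratory strains. Mx1 stood at 2.01 FPKM in TH-treated NASH, 0.892 in NASH and 0.525 in control. Mx2, listed in the table as a polymorphic pseudogene, stood at 5.66 FPKM in TH-treated NASH, 2.83 in NASH and 2.97 in control. Both were higher in TH-treated NASH than in NASH, Mx1 at 2.25-fold (1.82 to 2.78) and Mx2 at 2.003-fold (1.74 to 2.3). Neither passed the threshold in NASH against control, where the ratio was 1.7 (1.3 to 2.22) for Mx1 and 0.95 (0.819 to 1.1) for Mx2. Mx1 was 3.82-fold (3.01 to 4.87) and Mx2 1.9-fold (1.67 to 2.17) higher in TH-treated NASH than in control. Mx1 met the 1 FPKM entry level in TH-treated NASH alone, so a high value there was a condition for its being counted. Rsad2, the radical-SAM enzyme viperin, stood at 3.32 FPKM in TH-treated NASH, 2.88 in NASH and 1.43 in control. Its neighbour Cmpk2, a mitochondrial nucleotide kinase, stood at 1.9 FPKM in TH-treated NASH, 2.71 in NASH and 1.33 in control. Both were higher in NASH than in control, Rsad2 at 2.01-fold (1.75 to 2.31) and Cmpk2 at 2.03-fold (1.73 to 2.4). Ratios of TH-treated NASH to NASH lay on either side of 1, 1.15 (1.02 to 1.3) for Rsad2 and 0.701 (0.594 to 0.825) for Cmpk2. Of the pair, Rsad2 was past the threshold in TH-treated NASH against control, at 2.32-fold (2.01 to 2.66).

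Among the other effectors Ifi27l2a, a small hydrophobic protein of the IFI27 family, differed most. It stood at 78.4 FPKM in TH-treated NASH, 36.7 in NASH and 9.3 in control. NASH was 3.94-fold (3.4 to 4.58) higher than control, TH-treated NASH 2.14-fold (1.96 to 2.34) higher than NASH and 8.43-fold (7.34 to 9.73) higher than control. The related Ifi27 stood at 221 FPKM in TH-treated NASH, 144 in NASH and 105 in control, past the threshold in TH-treated NASH against NASH at 1.54-fold (1.49 to 1.59). Bst2, or tetherin, which holds budding virus on the cell surface, was the most abundant member, at 556 FPKM in TH-treated NASH, 460.0 in NASH and 285 in control. It was 1.61-fold (1.58 to 1.65) higher in NASH than in control, and its ratio of TH-treated NASH to NASH was 1.21 (1.18 to 1.24). Rtp4, a chaperone of membrane receptors, stood at 18.1 FPKM in TH-treated NASH, 14.6 in NASH and 8.91 in control. Xaf1, which promotes cell death, stood at 5.52 FPKM in TH-treated NASH, 4.99 in NASH and 2.68 in control. Ifi44 stood at 1.76 FPKM in TH-treated NASH, 1.67 in NASH and 0.514 in control. These 3 were higher in NASH than in control, Rtp4 at 1.64-fold (1.5 to 1.8), Xaf1 at 1.86-fold (1.63 to 2.12) and Ifi44 at 3.25-fold (2.62 to 4.06), and within the threshold in TH-treated NASH against NASH. Parp14, an ADP-ribosyltransferase, stood at 7.96 FPKM in TH-treated NASH, 6.25 in NASH and 4.2 in control. Ifi35 stood at 28.7 FPKM in TH-treated NASH, 25.2 in NASH and 19.7 in control. Of these 2, Parp14 alone passed the threshold in any pair, in TH-treated NASH against control at 1.89-fold (1.78 to 2.02). The other effectors past the threshold in that pair were Ifi27 at 2.1-fold (2.03 to 2.17), Bst2 at 1.95-fold (1.91 to 1.998), Rtp4 at 2.03-fold (1.85 to 2.23), Xaf1 at 2.06-fold (1.8 to 2.35) and Ifi44 at 3.42-fold (2.74 to 4.3).

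**Figure D3:**
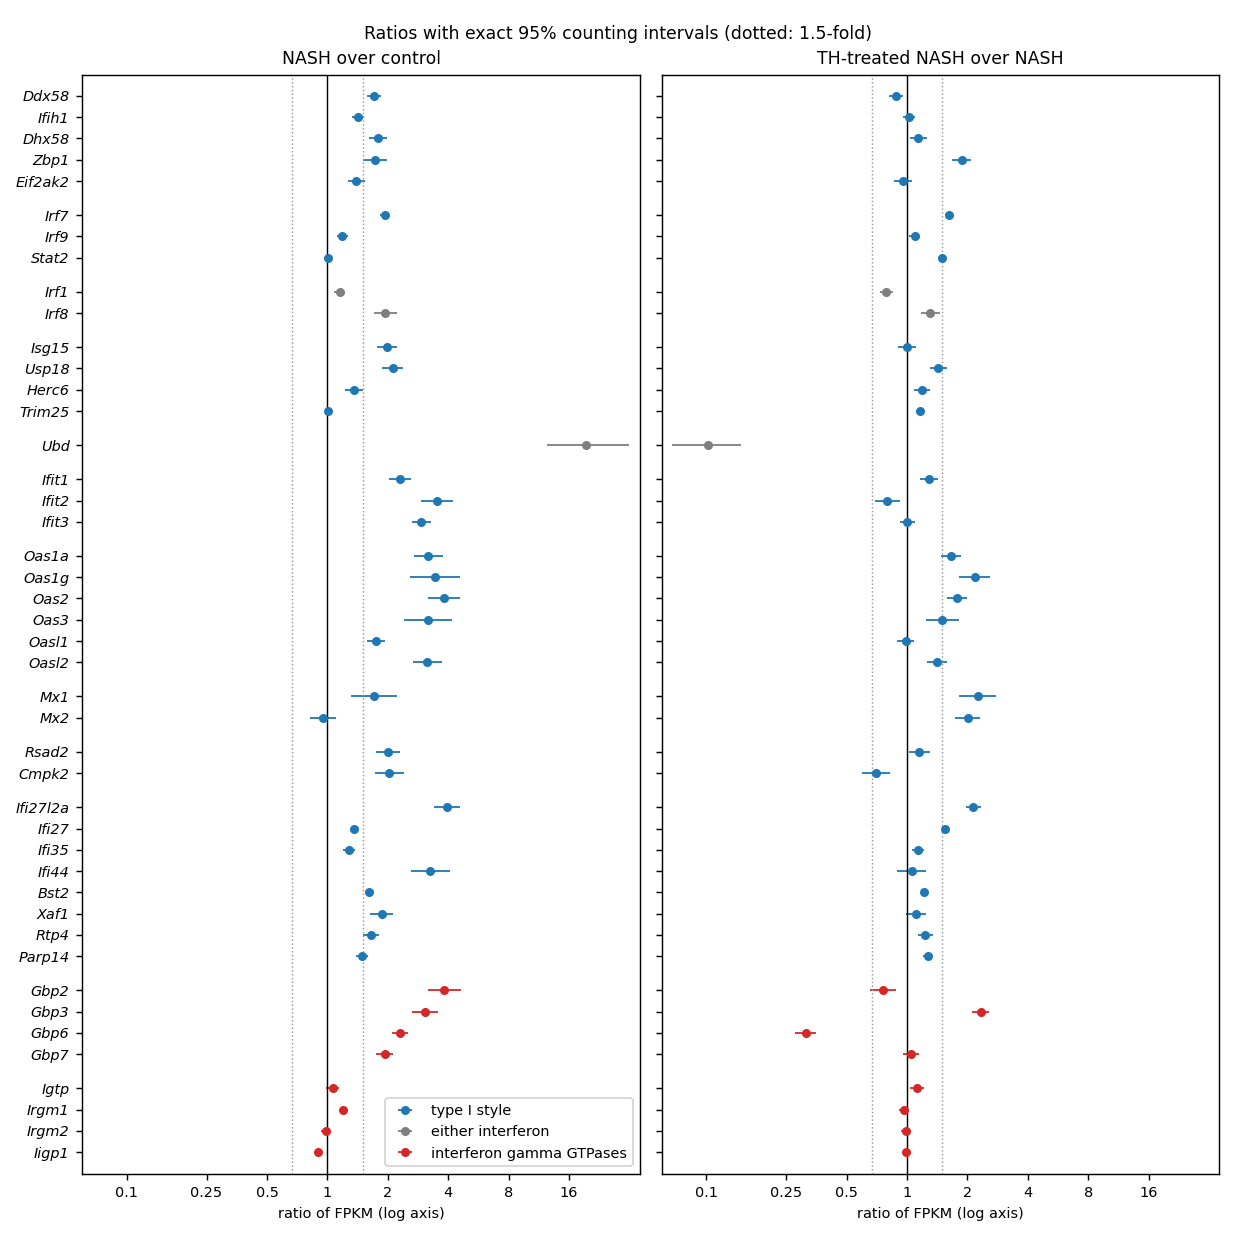
Ratios of FPKM (log axis) for NASH over control on the left and TH-treated NASH over NASH on the right, with exact 95% counting intervals as bars, a line at 1 and dotted lines at 1.5-fold either way, and the class given by colour. On the left the guanylate-binding proteins lie between 1.93 and 3.82 and the immunity-related GTPases between 0.894 and 1.2. On the right Ubd and Gbp6 lie furthest below 1.

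The 8 GTPases of the interferon gamma class belong to 2 families. Guanylate-binding proteins coat vacuoles and bacteria and help to open them to the inflammasome. Gbp2 stood at 3.07 FPKM in TH-treated NASH, 4.03 in NASH and 1.06 in control. Gbp3 stood at 12.3 FPKM in TH-treated NASH, 5.27 in NASH and 1.73 in control. Gbp7 stood at 4.19 FPKM in TH-treated NASH, 4.01 in NASH and 2.08 in control. Each was higher in NASH than in control, Gbp2 at 3.82-fold (3.16 to 4.63), Gbp3 at 3.05-fold (2.63 to 3.54) and Gbp7 at 1.93-fold (1.74 to 2.13). Gbp3 was a further 2.33-fold (2.12 to 2.56) higher in TH-treated NASH than in NASH, the largest ratio among the members in that comparison. The ratio there was 0.762 (0.657 to 0.882) for Gbp2 and 1.05 (0.955 to 1.14) for Gbp7. TH-treated NASH was higher than control by 2.91-fold (2.38 to 3.57) for Gbp2, 7.1-fold (6.19 to 8.15) for Gbp3 and 2.01-fold (1.82 to 2.23) for Gbp7. Gbp6 stood at 2.11 FPKM in TH-treated NASH, 6.73 in NASH and 2.94 in control. It was 2.29-fold (2.09 to 2.51) higher in NASH than in control and 3.2-fold lower (2.84 to 3.61) in TH-treated NASH than in NASH. Of the 75-base stretches of Gbp6, 99.4% also occur in other annotated genes, among them Gbp10 and Gbp11, so its value is uncertain. Gbp11, listed as a polymorphic pseudogene, stood at 3.86 FPKM in TH-treated NASH, 3.998 in NASH and 8.65 in control, 2.16-fold lower (1.95 to 2.4) in NASH than in control. The rows of Gbp3 and Gbp7 also lie within the span given for Gbp5 on the same strand, and no source used here says how such overlaps were counted.

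The immunity-related GTPases destroy the vacuoles of parasites and bacteria, and the 3 of the IRGM type, Irgm1, Irgm2 and Igtp, hold effectors such as Iigp1 inactive on the cell's own membranes. Iigp1 was the most abundant GTPase, at 95.5 FPKM in TH-treated NASH, 96.9 in NASH and 108 in control. Igtp stood at 15.7 FPKM in TH-treated NASH, 13.9 in NASH and 13.1 in control. Irgm1 stood at 14.2 FPKM in TH-treated NASH, 14.7 in NASH and 12.2 in control. Irgm2 stood at 15.1 FPKM in TH-treated NASH, 15.4 in NASH and 15.7 in control. None of the 4 passed the threshold in any pair of libraries. Their ratios ran from 0.894 to 1.2 for NASH over control and from 0.963 to 1.12 for TH-treated NASH over NASH. Igtp and Irgm2 overlap by 7974 bases on the same strand in the table, so their reads may not be separable. The promoter stretches of Igtp, Irgm1 and Irgm2 shown above hold an ISRE core, as do those of Isg15 and Gbp3.

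Ubd encodes FAT10, a ubiquitin-like modifier that sends proteins to the proteasome and that interferon gamma and tumour necrosis factor induce together. It stood at 0.813 FPKM in TH-treated NASH, 7.997 in NASH and 0.413 in control, from 29 fragments in TH-treated NASH, 350 in NASH and 21 in control. NASH was 19.3-fold (12.5 to 31.7) higher than control, and TH-treated NASH was 9.83-fold lower (6.73 to 14.9) than NASH. These were the largest differences of any member in the 2 comparisons. TH-treated NASH had a ratio of 1.97 (1.08 to 3.63) to control, within the threshold on the log2(FPKM + 1) scale. Ubd met the 1 FPKM entry level in NASH alone, so a high value in NASH was a condition for its being counted.

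Set side by side, 20 of 33 type I style genes and 4 of 8 interferon gamma GTPases were higher in NASH than in control and none of either class lower, where 10.3% of all genes were higher. After median-of-ratios or TMM scaling 12 of 33 type I style genes and 3 of 8 GTPases were higher. Of all genes, 6.52% were higher under the median-of-ratios and 7.06% under the TMM scaling. The median log2 ratio was 0.67 for the type I style genes and 0.47 for the GTPases. Without Gbp3, Gbp6, Gbp7, Igtp and Irgm2, which leaves Gbp2, Irgm1 and Iigp1, the GTPase median was 0.25. For all 8 it was 0.29 after median-of-ratios scaling, and for members at 5 FPKM or more it was 0.16. With Irf1, Irf8 and Ubd counted among the GTPases it was 0.70, above the type I style median, so the order of the classes depends on where these 3 genes are placed. For TH-treated NASH against NASH, 9 of 33 type I style genes were higher and none lower, and of the 8 GTPases 1 was higher and 1 lower, where 8.42% of all genes were higher and 9.02% lower. Scaling to equal FPKM totals left 5 of the 33 type I style genes higher, where 6.50% of all genes were higher. The GTPase counts as deposited are close to the shares of all genes. The median was 0.27 for the type I style genes and −0.02 for the GTPases, which was positive, at 0.02, after median-of-ratios scaling and −0.13 after scaling to equal totals. For TH-treated NASH against control, 24 of 33 type I style genes were higher, with a median of 0.87, and 3 of 8 GTPases, with a median of 0.22, where 15.5% of all genes were higher. That GTPase median was 0.052 after median-of-ratios scaling, 0.040 after TMM scaling and 0.074 for members at 5 FPKM or more. The counting interval of the ratio lay above 1 for all 33 type I style genes in that pair. The medians of the GTPases span 2 families. In NASH against control the 4 guanylate-binding proteins had a median of 1.09 and the 4 immunity-related GTPases one of 0.03, negative after median-of-ratios or TMM scaling. With 1 library per group and classes of this size, no difference between the classes was tested.

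**Figure D4:**
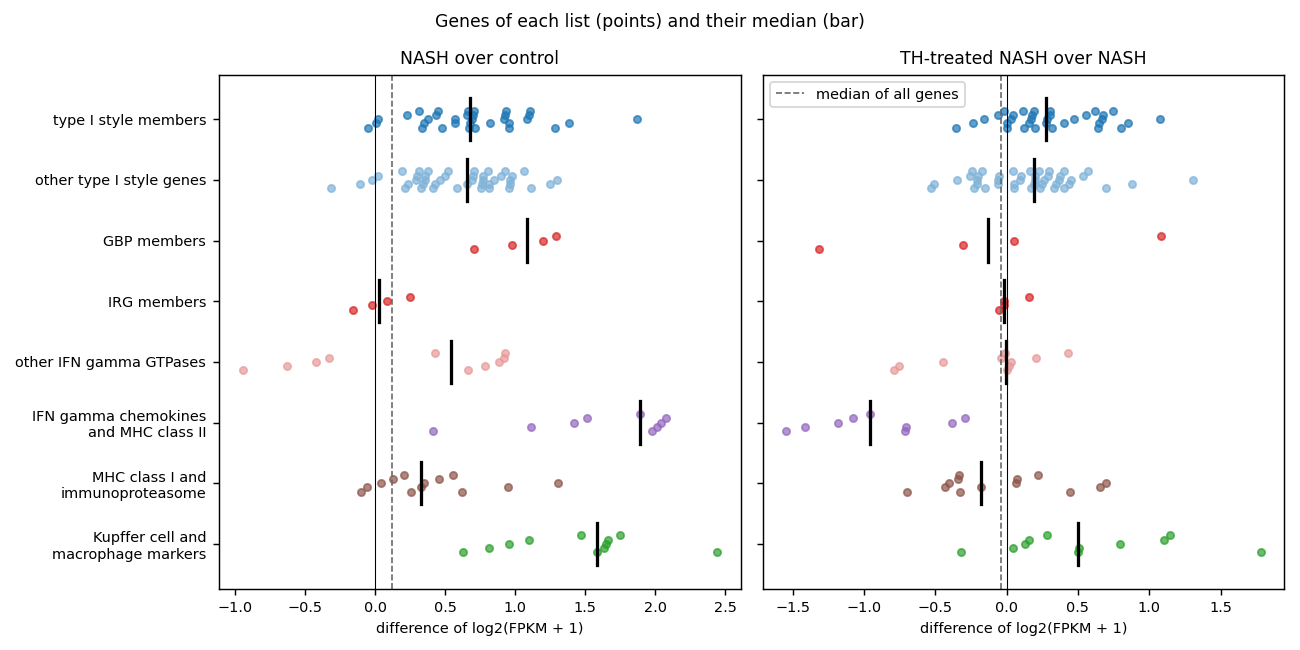
Difference of log2(FPKM + 1) for each gene (points) of the member classes, of related lists and of Kupffer cell markers, with the list median as a bar and the median of all genes as a dashed line, for NASH over control (left) and TH-treated NASH over NASH (right). The list of interferon gamma chemokines and MHC class II genes has a median of 1.89 on the left and −0.96 on the right, and the type I style members 0.67 on the left and 0.27 on the right. GBP stands for guanylate-binding proteins and IRG for immunity-related GTPases.

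The ligands of the pathway were almost without fragments. Of 21 interferon genes in the list, the 14 interferon alpha and alpha-like genes, Ifnb1, Ifne, Ifnz, Ifnl2 and Ifnl3 had no fragment in any library. For Ifnb1 this allows up to 0.104 FPKM in TH-treated NASH, 0.0851 in NASH and 0.0733 in control, taking 3 fragments per library as the limit. Ifng had 5 fragments in TH-treated NASH, 1 in NASH and 0 in control, and Ifnk had 1 in TH-treated NASH only.

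All 6 receptor genes had fragments in every library, and all but Ifnlr1 reached 1 FPKM in some library. The type I receptor chains stood at 8.62 FPKM in TH-treated NASH, 10.4 in NASH and 8.78 in control for Ifnar1 and at 8.53 FPKM in TH-treated NASH, 11.6 in NASH and 13.01 in control for Ifnar2. The interferon gamma receptor chains stood at 13.04 FPKM in TH-treated NASH, 12.5 in NASH and 7.47 in control for Ifngr1 and at 6.69 FPKM in TH-treated NASH, 9.96 in NASH and 6.18 in control for Ifngr2. Il10rb, a chain shared by the interferon lambda and interleukin 10 receptors, stood at 3.67 FPKM in TH-treated NASH, 4.34 in NASH and 2.04 in control, and Ifnlr1, the specific chain of the lambda receptor, at 0.119 FPKM in TH-treated NASH, 0.0865 in NASH and 0.0219 in control. In NASH against control, 3 of the 5 receptor genes at 1 FPKM or more were higher, Ifngr1 at 1.67-fold (1.53 to 1.82), Ifngr2 at 1.61-fold (1.49 to 1.74) and Il10rb at 2.12-fold (1.85 to 2.45), and of these calls median-of-ratios or TMM scaling left Il10rb. Of all genes, 10.3% were higher in NASH than in control. None of the 5 receptor genes passed the threshold in TH-treated NASH against NASH.

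Among genes of JAK-STAT signalling, Ptpn6, a phosphatase of blood cells, was 2.05-fold (1.89 to 2.22) higher in NASH than in control. Stat3 and Socs3, which serve interleukin 6 signalling, were lower in NASH, Stat3 1.77-fold lower (1.71 to 1.84) and Socs3 2.06-fold lower (1.84 to 2.3). Socs3 stood at 7.29 FPKM in TH-treated NASH, 3.73 in NASH and 7.68 in control and was 1.95-fold (1.73 to 2.2) higher in TH-treated NASH than in NASH. Against 10.3% of all genes higher and 2.53% lower, 3 of 15 other genes of nucleic acid sensing were higher in NASH than in control and none lower. These were Samhd1, a nucleotide hydrolase, at 2.17-fold (2.02 to 2.34), Unc93b1, which carries endosomal Toll-like receptors, at 1.77-fold (1.67 to 1.87), and the RNA receptor Tlr7 at 3.9-fold (2.88 to 5.35). None of the 15 passed the threshold for TH-treated NASH against NASH.

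In a list of 43 further type I style genes, 23 were higher in NASH than in control and none lower, with a median of 0.65. Of all genes, 10.3% were higher and 2.53% lower. The median of the list ran from 0.44 to 0.67 over the 4 scalings. Between TH-treated NASH and NASH, 3 were higher in TH-treated NASH and none lower, a share below the 8.42% of all genes, with a median of 0.19. These 3 were Shisa5, which acts in cell death, at 66.1 FPKM in TH-treated NASH, 26.1 in NASH and 13.6 in control, Slfn2, which keeps T cells quiescent, at 13.6 FPKM in TH-treated NASH, 6.95 in NASH and 2.24 in control, and the exonuclease Isg20 at 7.06 FPKM in TH-treated NASH, 3.97 in NASH and 2.48 in control. Of 10 further interferon gamma GTPases, 5 were higher and 2 lower in NASH than in control, where 10.3% of all genes were higher and 2.53% lower. In TH-treated NASH against NASH none of the 10 was higher and 2 were lower, where 8.42% of all genes were higher and 9.02% lower. Gbp8 was 2.999-fold (2.39 to 3.78) and Gm12250 3.03-fold (2.17 to 4.31) higher in NASH than in control. The 2 that were lower in TH-treated NASH than in NASH were F830016B08Rik, at 4.62 FPKM in TH-treated NASH, 8.48 in NASH and 13.7 in control, and Gm4951, at 20.7 FPKM in TH-treated NASH, 36.5 in NASH and 49.3 in control.

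Interferon gamma also induces chemokines and the antigen-presenting MHC class II genes. Of 9 such genes, 8 were higher in NASH than in control and none lower, with a median of 1.89. Of all genes, 10.3% were higher and 2.53% lower. Against NASH, 7 of the 9 were lower in TH-treated NASH and none higher, with a median of −0.96. Of all genes, 9.02% were lower in that pair. Cd74, the invariant chain of MHC class II, stood at 83.3 FPKM in TH-treated NASH, 177 in NASH and 47.1 in control. H2-Eb1 stood at 23.4 FPKM in TH-treated NASH, 70.1 in NASH and 15.9 in control, 2.998-fold lower (2.8 to 3.21) in TH-treated NASH than in NASH. Cxcl10, which attracts T cells, stood at 3.29 FPKM in TH-treated NASH, 5.99 in NASH and 2.23 in control, and Cxcl9, which binds the same receptor, at 5.85 FPKM in TH-treated NASH, 7.94 in NASH and 2.14 in control. Class II genes are also markers of dendritic and B cells. Of 13 MHC class I and immunoproteasome genes, 3 were higher in NASH than in control, where 10.3% of all genes were higher. They were Psmb9 at 2.76-fold (2.54 to 3.01), Tap1 at 2.06-fold (1.93 to 2.19) and Tap2 at 1.6-fold (1.5 to 1.71). The Tap2 call was lost after median-of-ratios or TMM scaling. Of the 13, the immunoproteasome subunits Psmb8 and Psmb10 were higher in TH-treated NASH than in NASH, at 1.64-fold (1.56 to 1.74) for Psmb8 and 1.59-fold (1.5 to 1.69) for Psmb10. Of all genes, 8.42% were higher and 9.02% lower. The Psmb10 call was lost after scaling to equal FPKM totals. B2m, the light chain of MHC class I, was 1.62-fold lower (1.6 to 1.64) in TH-treated NASH than in NASH.

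Markers of immune cells also differed between these libraries. Of all genes, 10.3% were higher in NASH than in control. In TH-treated NASH against NASH, 8.42% of all genes were higher and 9.02% lower. All 11 Kupffer cell and macrophage markers were higher in NASH than in control, and 4 of 11 in TH-treated NASH than in NASH. Their summed level was 915 FPKM in TH-treated NASH, 605 in NASH and 206 in control, and none was at 0. The 6 markers of lipid-associated macrophages were all higher in NASH than in control and 3 were lower in TH-treated NASH than in NASH, summing to 72.6 FPKM in TH-treated NASH, 137 in NASH and 45.9 in control. Monocyte markers summed to 180.2 FPKM in TH-treated NASH, 181 in NASH and 46.7 in control over 6 genes, with 3 of the 5 at 1 FPKM or more higher in NASH than in control and 2 higher in TH-treated NASH than in NASH. Neutrophil markers summed to 103 FPKM in TH-treated NASH, 9.39 in NASH and 4.94 in control over 8 genes, with 7 of 7 at 1 FPKM or more higher in TH-treated NASH than in NASH, and Ly6g at 0 in control. Plasmacytoid dendritic cells are the main makers of type I interferon, and their 6 markers summed to 1.07 FPKM in TH-treated NASH, 1.38 in NASH and 0.217 in control, none reaching 1 FPKM and Cd209d at 0 in TH-treated NASH.

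Lymphocyte markers were low in all 3 libraries. The shares of all genes to set beside the counts here were 10.3% higher and 2.53% lower in NASH than in control. In TH-treated NASH against NASH they were 8.42% higher and 9.02% lower. T cell markers summed to 7.19 FPKM in TH-treated NASH, 6.76 in NASH and 3.53 in control over 8 genes, of which 3 reached 1 FPKM, 1 being higher in NASH than in control. NK cell markers summed to 3.19 FPKM in TH-treated NASH, 1.69 in NASH and 0.858 in control over 7 genes, with Ncr1 at 0 in control, and 1 of the 2 at 1 FPKM or more was higher in TH-treated NASH than in NASH. B and plasma cell markers summed to 11.9 FPKM in TH-treated NASH, 8.86 in NASH and 4.39 in control over 6 genes, 2 of 4 being higher in NASH than in control. Dendritic cell markers summed to 8.3 FPKM in TH-treated NASH, 5.9 in NASH and 2.54 in control over 6 genes, 1 of 3 being higher in each of these comparisons. Of 8 endothelial markers none passed the threshold in either, and they summed to 97.1 FPKM in TH-treated NASH, 91.9 in NASH and 77.4 in control. Of 6 stellate cell markers, 5 were higher in NASH than in control and 2 lower in TH-treated NASH than in NASH, and they summed to 105 FPKM in TH-treated NASH, 133 in NASH and 70.99 in control. Hepatocyte markers summed to 32066 FPKM in TH-treated NASH, 36537 in NASH and 52548 in control over 8 genes, 3 being lower in NASH than in control, and 1 higher and 2 lower in TH-treated NASH than in NASH. The part of these marker differences in the values of the interferon-stimulated genes was not tested.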

How the data were processed

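The deposited values are FPKM per gene, made by the authors, with 1 column per library. TopHat2 and HTSeq are the tools listed, per the submitters' processing notes. Not given in the sources used here are versions, settings, strand mode and genome build. PolyA RNA was copied with random hexamers, per the labels' protocols. FPKM multiplied by the table's gene length came in whole multiples of 1 step per library. In these steps 100% of nonzero values came out whole (tolerance 0.01 fragment), which gave fragments and library totals. With these, ratios of FPKM were given exact 95% intervals (conditional binomial, Clopper-Pearson) and single values exact Poisson intervals, for counting error only. PCR copies are not independent molecules. Lists were reduced to genes that reached 1 FPKM in some library. No test between groups was run, since each group had 1 library.

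The members, classes, lists and the rule for named genes were chosen with earlier results of these data known. By that rule every member was accounted for, with ratios for those past 1.5-fold, and up to 4 genes of each other list with the largest differences could be named, besides all ligands and receptors. Cxcl10 and Alb stand outside this rule and were chosen after their values were seen. The JAK-STAT list is reported here only in part. Symbols were matched to the table directly or by gene ID. Shared 75-base stretches were counted in the longest GENCODE M21 transcript of each member. Promoter sequences are RefSeq's, on GRCm38.p6. Scripts used Python 3.11.15, numpy 2.4.6, pandas 2.3.3 and scipy 1.17.1, and were tested on simulated data. Alternatives were pseudocounts of 0.1 and 5 FPKM, other filters, 4 scalings, a 2-fold threshold, the interval itself and other class limits. Another left out Ifit3, Oas1a, Oas1g, Gbp3, Gbp6, Gbp7, Igtp and Irgm2 as members with close copies. They were set by name and not by a cut-off on shared stretches. Gbp3, with 2.68% of its stretches shared, was left out, while Herc6, with 22.4%, was kept.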

Additional observations from a re-analysis of the deposited data

How the results depend on the processing

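The member counts, the medians of the 2 classes and the called members were recomputed with 1 choice changed at a time. Other lists and markers were recomputed under the 4 scalings only. Of the recomputed counts and class medians, 101 stayed near the reported value and 25 moved further. The 101 include every value without a filter, which could not move because each member had reached 1 FPKM. They also include counts of 0 that stayed at 0. For a count, near meant within 1.5 times the reported one. For a class median, it meant between the median lower limit and the median upper limit of the counting intervals of its genes. For NASH over control the number of members called higher, 26 as reported, was 9 with a pseudocount of 5 FPKM, 16 after median-of-ratios scaling, 16 after TMM scaling and 9 at a 2-fold threshold. The type I style median, 0.67, was 0.38 with a pseudocount of 5 FPKM, 0.51 under median-of-ratios and 0.54 under TMM scaling. The median of the interferon gamma GTPases, 0.47, was 0.59 with a pseudocount of 0.1 FPKM and 0.27 with one of 5 FPKM. It was 0.29 after median-of-ratios scaling, 0.32 after TMM scaling and 0.16 for genes at 5 FPKM or more. Without the members listed as close copies, which leaves Gbp2, Irgm1 and Iigp1, it was 0.25. With Irf1, Irf8 and Ubd added to the whole class it was 0.70. For TH-treated NASH over NASH the number higher, 10, was 4 with a pseudocount of 5 FPKM, 6 after scaling to equal FPKM totals and 2 at a 2-fold threshold. The number lower, 2, was 1 without the members listed as close copies, which include Gbp6. The GTPase median was −0.13 after scaling to equal totals. For TH-treated NASH over control the number higher, 28, was 15 with a pseudocount of 5 FPKM and 13 at a 2-fold threshold, and the type I style median, 0.87, was 0.47 with that pseudocount. The GTPase median, 0.22, was 0.074 for genes at 5 FPKM or more, 0.052 under median-of-ratios and 0.040 under TMM scaling. No called member turned in sign in 396 recomputed values over 66 calls, but none could have. A changed pseudocount cannot turn a sign. The scaling divisors, from 0.986 to 1.16, were too close to 1 to turn a call of 1.5-fold. A higher pseudocount shrinks every ratio by construction. A scaling divides all values of a library by the same number. Every ratio of FPKM in a comparison is thereby multiplied by the same factor. Why the scalings gave different factors was not tested.

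No paired analysis was possible because each group has 1 library. A search for motifs in protein sequences, planned for the GTPases, was not run, since protein sequences were not used here. Depth limits the interferon ligands, at 0 to 5 fragments, and Ubd in TH-treated NASH and control, at 29 and 21 fragments. Every interval covers the counting of fragments, so differences between mice, which 1 library per group cannot show, are outside all of them.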
